A study of Arabidopsis thaliana with 9 samples.

Results

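The comparison was between roots of 2 Arabidopsis thaliana lines, 35S:rMYB83, which overexpresses a form of the transcription factor gene MYB83 that resists the microRNA miR858, and 35S:miR858, which overexpresses that microRNA. All 3 libraries of 35S:rMYB83 and all 3 of 35S:miR858 were used, 6 of the 9 libraries of the series, and the remaining 3, of the wild type Col-0, gave levels for context and entered the fit in 1 alternative only. The libraries held mRNA from roots of plants 2 weeks old, grown in long days, and the labels name no nematode infection of these plants. In both lines the transgene was driven by the constitutive 35S promoter of cauliflower mosaic virus, so neither transgene was limited to the cells that normally express MYB83 or miR858. How many independent transgenic lines were used, and which bases were changed in rMYB83, is not stated in what was used here. Nothing says whether the replicates came from separate plants, so each p-value measures the spread among these libraries only, which may be technical. Of 28775 loci counted, 18956 had enough reads to be tested, and these genes are described below.

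MYB83 and its close relative MYB46 are R2R3 MYB transcription factors that act as master switches of secondary wall formation in vessels and fibres, where they turn on genes for cellulose, xylan and lignin and further transcription factors. miR858 is a plant microRNA that pairs with the coding sequence of many R2R3 MYB messages, and it is best known for its pairing with the flavonol regulators MYB11, MYB12 and MYB111. One line overexpresses MYB83 and the other a microRNA with a site in its message, and the direct comparison asks which genes differ between them.

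The sequences below show why these MYB genes are grouped here. The mature strands were taken from the RefSeq annotation of TAIR10.1 and are written 5′ to 3′ with the seed, bases 2 to 8, in capitals. Mature miR858a lies at chr1:26773695-26773715 on the minus strand, and miR858b at chr1:26772907-26772927 on the plus strand. Both are 21 bases long, and miR858b is the same run shifted by a base, so their seeds differ in register only.
miR858a: uUUCGUUGucuguucgaccuu
miR858b: uUCGUUGUcuguucgaccuug

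A search of the annotated transcripts for sites that pair with miR858a without gaps found 14 loci. A mismatch scored 1 and a G:U pair 0.5, both doubled at miRNA bases 2 to 13, and the total could reach 4. Every site lay in the coding sequence of an R2R3 MYB gene. The sites of the genes on which the results turn are written 5′ to 3′ in the RNA alphabet, with bases unpaired with miR858a or in a G:U pair in capitals.
MYB83: CagguAgaacagacaacgaGa
MYB12: CaggGAgaacagacaacgaaa
MYB42: CaggAAgaacagacaacgaaa
MYB63: CagguAgaacagaUaacgaGa
The MYB83 site was in exon 2 at chr3:2577626-2577646 on the minus strand, with 2 mismatches and 1 wobble and a penalty of 3. The MYB12 site was in exon 3 at chr2:19478416-19478436 on the plus strand, and the MYB42 site in exon 2 at chr4:7326065-7326085 on the plus strand, each with 3 mismatches and a penalty of 3. The MYB63 site was in exon 3 at chr1:29787000-29787020 on the plus strand, with 2 mismatches, 2 wobbles and a penalty of 4. A site found this way is a match of letters and no evidence of cleavage, and mature microRNAs are not measured by these libraries.

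Both transgenes were visible in the counts, given as CPM, the counts scaled to a common library size after TMM adjustment. MYB83 had 134, 97.9 and 102 CPM in 35S:rMYB83, against 1.56, 1.53 and 1.5 CPM in 35S:miR858 and 0.947, 2.17 and 0.722 CPM in Col-0. All 3 35S:rMYB83 libraries stood far above every other library, and 35S:miR858 lay within the Col-0 range (log2 fold change 6.18 ± 0.18 SE, adjusted p = 1.36e-05, edgeR quasi-likelihood F test with Benjamini-Hochberg adjustment, as for every adjusted p below). The libraries cannot tell reads of the transgene from reads of the native MYB83 gene. The MIR858a locus, at chr1:26773539-26773725 on the minus strand, had 0 counts in each 35S:rMYB83 library, against 120, 200 and 227 counts in 35S:miR858 and 0 in each Col-0 library. MIR858a RNA was thus at least 160-fold lower in 35S:rMYB83, taking a floor of 3 counts over the group, a limit that covers counting error only (adjusted p = 0.00223). No other locus had 0 counts in one line and at least 10 in every library of the other. MIR858b was not analysed here. MYB46 had 4.91, 4.77 and 5.21 CPM in 35S:rMYB83, against 3.96, 5.12 and 4.95 CPM in 35S:miR858, with overlapping groups (log2 fold change 0.10 ± 0.20 SE, adjusted p = 0.829).

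**Figure D1:**
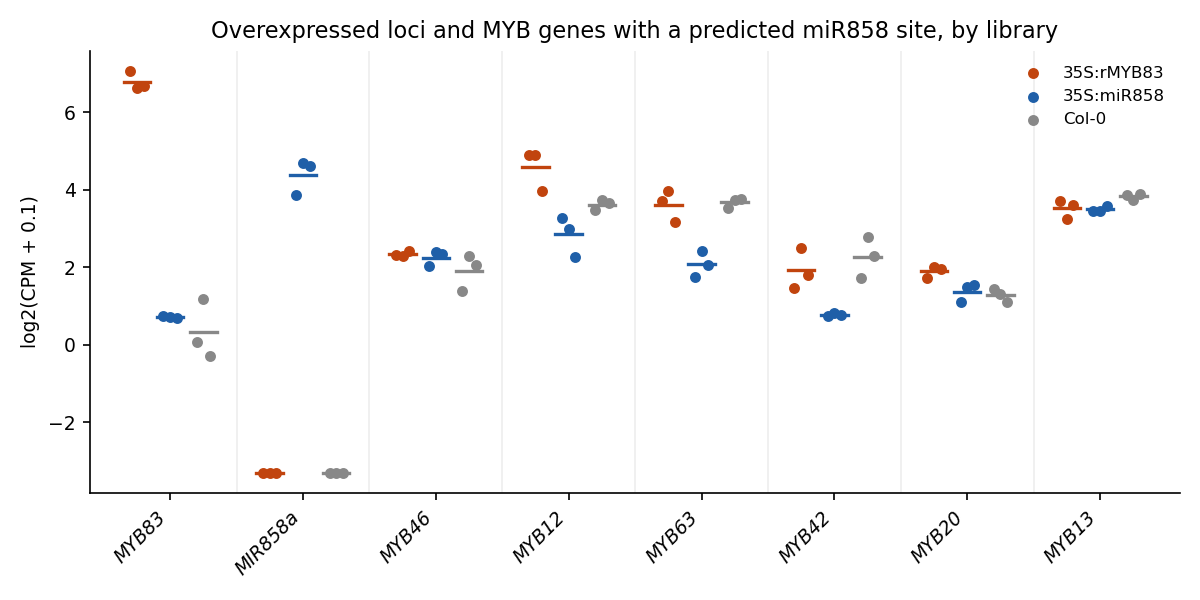
Levels of MYB83, MIR858a, MYB46 and MYB genes with a predicted miR858 site, as log2(CPM + 0.1); points are libraries and short bars the group means, with 35S:rMYB83 left of 35S:miR858 and Col-0 last. MYB83 is high in 35S:rMYB83 only and MIR858a is read in 35S:miR858 only, while MYB46 and MYB13 overlap between the lines.

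Across the whole transcriptome, 839 of the 18956 genes tested differed at an adjusted p under 0.05, which is 4.43%. Of these, 510 were higher in 35S:rMYB83 (2.69%) and 329 were lower (1.74%). Below, a gene that rose or fell was higher or lower in 35S:rMYB83 than in 35S:miR858, whatever its level in Col-0. The higher genes moved further, with a median log2 fold change of 1.15, against -0.79 for the lower genes and 0.01 for all genes tested. A fold of at least 2 was reached by 289 of the higher genes (1.52%) and 101 of the lower genes (0.533%). An unadjusted p under 0.05, a looser threshold also given for the lists below, was reached by 3656 of the 18956 genes in either direction. All 839 had libraries of the lines that did not overlap, as did 24.9% of all genes tested. The plot of fold change against level shows these genes.

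**Figure D2:**
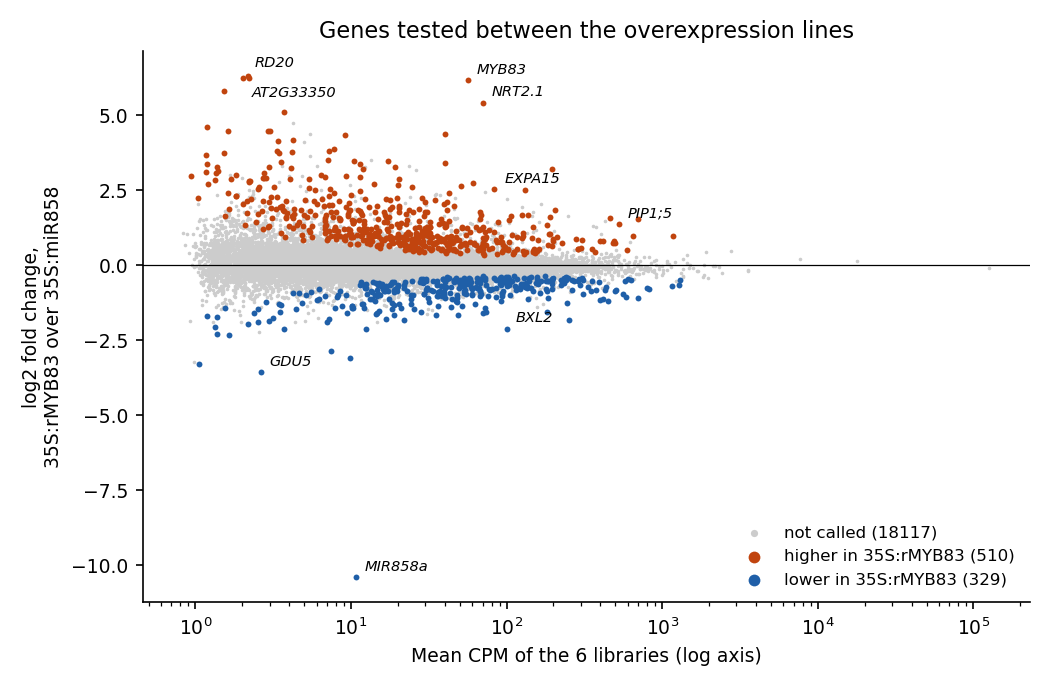
Fitted log2 fold change of 35S:rMYB83 over 35S:miR858 (vertical axis) against the mean CPM of the 6 libraries (horizontal log axis) for the 18956 genes tested; coloured points are the 510 higher and 329 lower genes and grey points the rest. MYB83 and MIR858a lie near the ends of the range, and the MIR858a value is fitted against 0 counts, so it is no bound.

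The size of these sets changed when a library was left out, in fits that also have fewer libraries. Leaving out replicate 2 of 35S:miR858 gave 234 higher and 98 lower genes, and leaving out replicate 2 of 35S:rMYB83 gave 217 and 101. Without replicate 1 of 35S:rMYB83 the counts were 404 and 154, without its replicate 3 they were 452 and 156, without replicate 1 of 35S:miR858 they were 385 and 270, and without its replicate 3 they were 367 and 359. Of the 839 genes, 256 were called in each of these 6 fits, 192 higher and 64 lower, and they are called stable below. Gene counts per library were 5313656 to 8678440 in 35S:rMYB83 and 8409713 to 9461852 in 35S:miR858, with replicate 1 of 35S:rMYB83 the shallowest. That library also stood apart on the first principal component (-56.2, against -16.6 and -16.4 in the other 35S:rMYB83 libraries and 16.8 to 44.2 in 35S:miR858). Its 20 markers of green shoot tissue summed to 8132 CPM, against 1121 and 1894 CPM in the other 35S:rMYB83 libraries and 869 to 2237 CPM in 35S:miR858. In Col-0 the sums were 4288, 956 and 788 CPM, so replicate 1 was the highest there too. The part of these markers in the results was not tested. None of these 20 was called by edgeR, while 4 were higher at an unadjusted p under 0.05 and DESeq2 called 0; all 20 log2 fold changes were above 0, with a median of 1.18.

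MYB genes with a site for miR858 were mostly at or above their 35S:miR858 level in 35S:rMYB83, and the flavonol activator MYB12 was called. Apart from MYB83, 13 loci had a site, of which 8 were expressed enough to be tested, and 2 rose, 0 fell and 6 did not pass the test. Their median log2 fold change was 0.36, with 7 of 8 above 0, beside 0.01 for all genes. At a penalty of at most 3, 4 of 6 loci were tested and 1 rose, with a median of 0.91. The 2 that rose were MYB12 and MYB63, an activator of lignin genes. Of the 4 listed target MYB genes tested, 2 were higher and 0 lower at an unadjusted p under 0.05, and DESeq2 called 1 higher and 0 lower.

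MYB12 had 29.9, 29.7 and 15.5 CPM in 35S:rMYB83, against 9.6, 7.8 and 4.73 CPM in 35S:miR858 and 11, 13.2 and 12.4 CPM in Col-0. The groups did not overlap, with Col-0 between the lines (log2 fold change 1.77 ± 0.32 SE, adjusted p = 0.0232). The call ended without replicate 2 of 35S:miR858 (adjusted p = 0.0858) and without replicate 2 of 35S:rMYB83 (0.0952). MYB42, which acts in lignin regulation, had 2.65, 5.5 and 3.4 CPM in 35S:rMYB83, against 1.56, 1.66 and 1.61 CPM in 35S:miR858 and 3.18, 6.78 and 4.82 CPM in Col-0. Its 35S:miR858 libraries were the lowest of all 9, but it did not pass the test (log2 fold change 1.28 ± 0.32 SE, adjusted p = 0.0711). MYB20, with the same site sequence as MYB42, had 3.21, 3.91 and 3.74 CPM in 35S:rMYB83, against 2.04, 2.69 and 2.79 CPM in 35S:miR858 (log2 fold change 0.55 ± 0.24 SE, adjusted p = 0.261). MYB13, also with a site at a penalty of 3, had 13, 9.41 and 12 CPM in 35S:rMYB83, against 10.9, 10.9 and 11.8 CPM in 35S:miR858, and its groups overlapped (log2 fold change 0.04 ± 0.16 SE, adjusted p = 0.925). The flavonol regulators MYB11 and MYB111 were too low to be tested. MYB11 had 3, 3 and 2 counts in 35S:rMYB83, against 1, 1 and 0 counts in 35S:miR858.

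Among genes that MYB46 and MYB83 are known to bind, the transcription factor genes KNAT7, MYB43 and MYB63 and the cellulose synthase gene CESA8 were higher in 35S:rMYB83. Of 8 such genes 7 were tested, and 4 rose, 0 fell and 3 did not pass, with a median log2 fold change of 0.71. None fell by DESeq2 or at an unadjusted p under 0.05 either. KNAT7, a homeodomain protein that restrains secondary wall deposition, had 56, 63.3 and 48.7 CPM in 35S:rMYB83, against 17.5, 21.6 and 18.9 CPM in 35S:miR858 and 25.8, 36 and 34.9 CPM in Col-0. The 3 genotypes did not overlap, with Col-0 in the middle (log2 fold change 1.55 ± 0.13 SE, adjusted p = 0.00179). MYB43, a regulator of lignin genes, had 28, 36.4 and 26.4 CPM in 35S:rMYB83, against 10.7, 12.2 and 11.8 CPM in 35S:miR858 and 21, 29.9 and 22.6 CPM in Col-0. Here the 35S:miR858 libraries stood below all others, while 35S:rMYB83 and Col-0 overlapped (log2 fold change 1.40 ± 0.15 SE, adjusted p = 0.00394).

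MYB63 had 13, 15.6 and 8.84 CPM in 35S:rMYB83, against 3.24, 5.24 and 4.08 CPM in 35S:miR858 and 11.5, 13.1 and 13.4 CPM in Col-0. Every 35S:miR858 library was below every library of the other genotypes (log2 fold change 1.59 ± 0.27 SE, adjusted p = 0.0181), but the call ended without replicate 1 of 35S:miR858 (0.0549) and without replicate 2 of 35S:rMYB83 (0.0736). CESA8, a subunit of the secondary wall cellulose synthase, had 43.3, 49.6 and 34 CPM in 35S:rMYB83, against 26.3, 23.8 and 27.8 CPM in 35S:miR858 (log2 fold change 0.71 ± 0.15 SE, adjusted p = 0.0403). The groups did not overlap, yet the CESA8 call held in only 1 of the 6 fits with a library left out, the one without replicate 3 of 35S:rMYB83, and was 0.0631 to 0.149 in the others. The companion subunits CESA4 (log2 fold change 0.26, adjusted p = 0.368) and CESA7 (0.30, 0.16) did not pass, nor did the zinc finger gene C3H14 (-0.15, 0.831). Without replicate 1 of 35S:miR858 or without replicate 2 of 35S:rMYB83, 2 of the 7 were called.

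Among other regulators of the secondary wall, 22 of 27 were tested, and 3 rose, 0 fell and 19 did not pass, with a median log2 fold change of 0.38. At an unadjusted p under 0.05, 6 were higher and 0 lower, and DESeq2 called 3 higher and 0 lower. BLH6, a homeodomain partner of KNAT7, had 27.2, 22.6 and 16.4 CPM in 35S:rMYB83, against 7.44, 5.5 and 6.45 CPM in 35S:miR858 and 20.1, 17.8 and 15.1 CPM in Col-0. Its 35S:miR858 libraries were the lowest and lay far below both other genotypes (log2 fold change 1.77 ± 0.22 SE, adjusted p = 0.00559). MYB4, a repressor of phenylpropanoid genes, had 84.7, 74.2 and 60.2 CPM in 35S:rMYB83, against 34.3, 31.7 and 26.2 CPM in 35S:miR858 and 39.5, 59.3 and 54 CPM in Col-0. All 3 35S:rMYB83 libraries were above every other library (log2 fold change 1.26 ± 0.15 SE, adjusted p = 0.00559). MYB85, an activator of lignin genes, had 5.86, 6.72 and 4.76 CPM in 35S:rMYB83, against 1.92, 1.79 and 1.94 CPM in 35S:miR858 (log2 fold change 1.62 ± 0.23 SE, adjusted p = 0.00994), and lost its call without replicate 2 of 35S:miR858 (0.0506) and without replicate 2 of 35S:rMYB83 (0.0509). Without either of these libraries 2 of the 22 were called.

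The cellulose, xylan and xylem genes gave a mixed picture. All 25 were tested, and 3 rose, 1 fell and 21 did not pass, with a median log2 fold change of 0.23. CTL2, a chitinase-like protein needed for cellulose deposition, had 69, 72.7 and 47.2 CPM in 35S:rMYB83, against 21.4, 24.9 and 21.4 CPM in 35S:miR858 and 18.2, 39.1 and 34.4 CPM in Col-0. All 3 35S:rMYB83 libraries were above every other library (log2 fold change 1.49 ± 0.17 SE, adjusted p = 0.00477). The xylan backbone genes IRX10 (log2 fold change 0.81, adjusted p = 0.0207) and IRX9 (0.85, 0.0265) also rose, but IRX10 lost its call in 3 and IRX9 in 4 of the 6 fits with a library left out (0.0553 to 0.106). ACL5, the thermospermine synthase that delays maturation of xylem vessels, fell. It had 47.4, 60.0 and 59.2 CPM in 35S:rMYB83, against 94.3, 102 and 97.4 CPM in 35S:miR858 and 102, 75.5 and 104 CPM in Col-0. The lines did not overlap, and Col-0 lay mostly at the 35S:miR858 level (log2 fold change -0.80 ± 0.10 SE, adjusted p = 0.00665). The number that rose was 1 without replicate 1 of 35S:miR858 and without replicate 2 of 35S:rMYB83, and 2 without replicate 2 of 35S:miR858 and without replicate 1 of 35S:rMYB83. Summed over the list, these genes, which also serve as xylem markers, reached 708 to 834 CPM in 35S:rMYB83, against 628 to 673 CPM in 35S:miR858 and 603 to 851 CPM in Col-0. In whole roots, more cells of a type and more RNA per cell cannot be told apart.

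Of 25 lignin and phenylpropanoid enzymes, all tested, 13 rose, 1 fell and 11 did not pass, with a median log2 fold change of 0.53. Only 4 of the 13 were called in each of the 6 fits with a library left out. The largest log2 fold change was 1.23, of the ferulate 5-hydroxylase F5H1 (adjusted p = 0.0382, lost in 5 of the 6 fits with a library left out at 0.061 to 0.144). The lines did not overlap in 15 of the 25 members, which include every called member, beside 24.9% of all genes tested. 4CL1, a 4-coumarate:CoA ligase, had 271, 257 and 230.2 CPM in 35S:rMYB83, against 125, 132 and 119 CPM in 35S:miR858 and 313, 467 and 464 CPM in Col-0. The 35S:rMYB83 libraries stood above 35S:miR858 without overlap, but below all 3 Col-0 libraries (log2 fold change 1.03 ± 0.09 SE, adjusted p = 0.00199). C4H, the second enzyme of the pathway, had 517, 576 and 486 CPM in 35S:rMYB83, against 302, 316 and 294 CPM in 35S:miR858 and 344, 497 and 478 CPM in Col-0. The lines did not overlap (log2 fold change 0.80 ± 0.09 SE, adjusted p = 0.00461). CCR1, the reductase that commits the pathway to lignin, had 137, 134 and 118 CPM in 35S:rMYB83, against 77.4, 79.8 and 73.8 CPM in 35S:miR858 (log2 fold change 0.76 ± 0.09 SE, adjusted p = 0.00474). 4CL5, a further 4-coumarate:CoA ligase, had 90.7, 82.4 and 66.7 CPM in 35S:rMYB83, against 40.3, 39.1 and 31.7 CPM in 35S:miR858 (log2 fold change 1.12 ± 0.14 SE, adjusted p = 0.00632). In Col-0 CCR1 had 131, 180 and 151 CPM and 4CL5 80.9, 129 and 126 CPM. Both Col-0 ranges overlapped 35S:rMYB83 and lay above 35S:miR858. 4CL1, C4H, CCR1 and 4CL5 were the stable ones, and their 35S:miR858 libraries lay within a narrow range.

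Each of the remaining lignin calls was lost in at least 1 of the fits with a library left out. Such fits also have fewer libraries, and the cause of a lost call was not tested. PAL1, the entry enzyme, had 619, 677 and 519 CPM in 35S:rMYB83, against 322, 399 and 367 CPM in 35S:miR858 (log2 fold change 0.75, adjusted p = 0.0169). HCT (0.75, 0.0117), which makes the shikimate esters of the pathway, and the cinnamyl alcohol dehydrogenase CAD4 (0.84, 0.0133) rose by similar amounts. Without replicate 2 of 35S:rMYB83 these 3 calls ended at adjusted p = 0.0644 for PAL1, 0.0518 for HCT and 0.0611 for CAD4. The exception in direction was PRX71, a cell wall peroxidase, with 317, 328 and 488 CPM in 35S:rMYB83, against 685, 763 and 765 CPM in 35S:miR858 and 114, 107 and 198 CPM in Col-0. Both lines were above all 3 Col-0 libraries, and 35S:miR858 was the higher of the lines (log2 fold change -0.96 ± 0.16 SE, adjusted p = 0.019). The PRX71 call ended without replicate 2 of 35S:miR858 (0.0795), without replicate 2 of 35S:rMYB83 (0.0866) and in the fit of all 9 libraries (0.0554). The number of enzymes that rose was 4 without replicate 2 of 35S:rMYB83, and 8 without replicate 2 or without replicate 3 of 35S:miR858. Of 15 laccases tested, from 17, LAC4 and LAC7 rose and 0 fell (1 lower at an unadjusted p under 0.05 and 0 by DESeq2). These 2 calls were gone without any 1 of the 35S:miR858 libraries or replicate 2 of 35S:rMYB83, when 0 laccases were called. Without replicate 1 of 35S:rMYB83 1 was called.

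Flavonoid enzymes had the highest median of the lists, 1.66 on the log2 scale. Of 15 listed 11 were tested, all 11 were above 0, and 7 rose, 0 fell and 4 did not pass. DESeq2 also called 7 higher and 0 lower, and 9 were higher and 0 lower at an unadjusted p under 0.05. UGT78D2, the flavonoid 3-O-glucosyltransferase, had 52.4, 52.8 and 28.9 CPM in 35S:rMYB83, against 13.7, 16.1 and 13 CPM in 35S:miR858 and 31.1, 30.9 and 24.6 CPM in Col-0. The lines did not overlap and the call was stable (log2 fold change 1.66 ± 0.24 SE, adjusted p = 0.00943). FLS1, flavonol synthase, had 94.9, 138 and 82.9 CPM in 35S:rMYB83, against 30.3, 8.44 and 8.92 CPM in 35S:miR858 and 67, 54.8 and 50.0 CPM in Col-0. Replicates 2 and 3 of 35S:miR858 were much lower than its replicate 1, and all 35S:rMYB83 libraries were above Col-0 (log2 fold change 2.74 ± 0.47 SE, adjusted p = 0.0192). 4CL3, the 4-coumarate:CoA ligase of flavonoid synthesis, had 17.4, 21 and 11.4 CPM in 35S:rMYB83, against 5.4, 2.17 and 2.26 CPM in 35S:miR858 (log2 fold change 2.35 ± 0.38 SE, adjusted p = 0.0144). CHI, chalcone isomerase, had 29.5, 44.9 and 29.2 CPM in 35S:rMYB83, against 10.6, 2.17 and 3.76 CPM in 35S:miR858 (log2 fold change 2.66 ± 0.46 SE, adjusted p = 0.02). In FLS1, 4CL3 and CHI replicate 1 of 35S:miR858 was the highest of its group. Without replicate 2 of 35S:miR858 2 flavonoid enzymes were called, and without replicate 2 of 35S:rMYB83 1 was called. Under these settings FLS1 had adjusted p = 0.0673 and 0.0771 and 4CL3 had 0.0599 and 0.0679, while CHI lost its call only without replicate 2 of 35S:rMYB83 (0.0833).

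**Figure D3:**
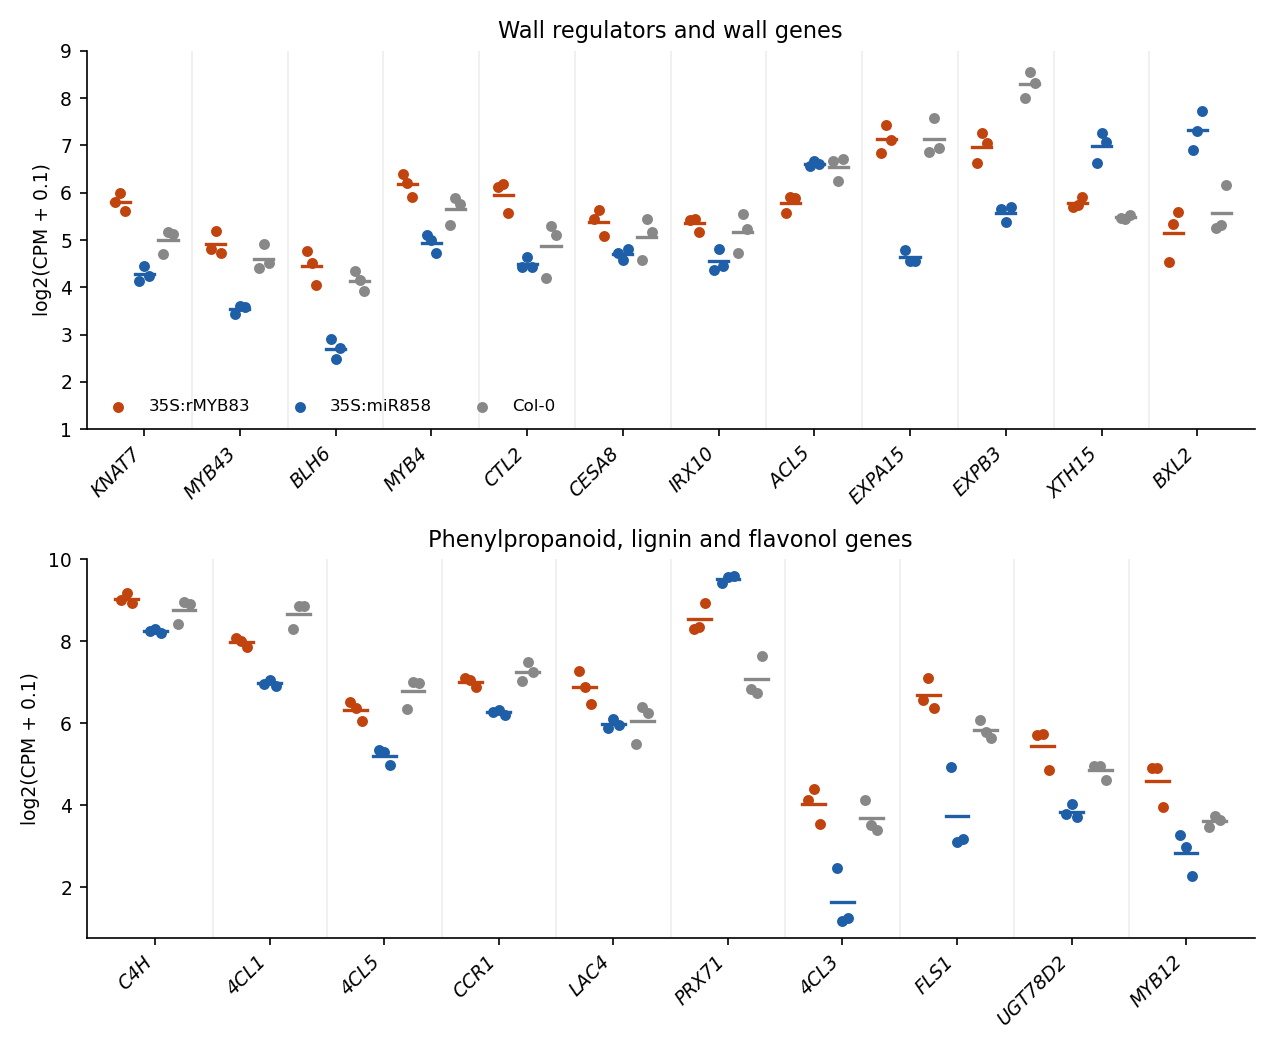
Levels of wall regulators and wall genes (upper panel) and of phenylpropanoid, lignin and flavonol genes (lower panel), as log2(CPM + 0.1); points are libraries and short bars the group means, with 35S:rMYB83 left of 35S:miR858 and Col-0 last. Every gene drawn was called, and as in all 839 genes called the 35S:rMYB83 points do not overlap the 35S:miR858 points. ACL5, XTH15, BXL2 and PRX71 are the genes with 35S:rMYB83 below.

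Promoters were searched for the secondary wall MYB-responsive element, the word family that MYB46 and MYB83 bind. It begins ACC, then A or T, then A, then A or C, and ends in C or T, which gives 8 words of 7 letters, searched on both strands in the 250 bases before each gene start in TAIR10.1, overlapping matches included. At least 1 word was present in 37.5% of the promoters of genes that rose (191 of 509), 26.4% of those that fell (87 of 329) and 29.7% of those of all genes tested (5632 of 18943). Among 100 genes of the wall, lignin and flavonoid lists 90 were tested and 32 called, and a word was present in 14 of the 30 that rose and 0 of the 2 that fell. The share among the tested members of these lists that were not called was not computed, so these counts have no baseline within the lists. The promoters of KNAT7, MYB43, MYB63 and CESA8 held no word in this window. The promoters of 4CL3, with 4 words, and C3H1, with 3, are printed as examples from the flavonoid and lignin branches, chosen after their words were counted, with the words in capitals, on the gene's strand, from RefSeq TAIR10.1. That of 4CL3 lies at chr1:24171636-24171885 on the minus strand, where the middle pair of words overlaps. That of C3H1, the p-coumarate 3-hydroxylase of lignin synthesis, lies at chr2:17060653-17060902 on the minus strand. C3H1 rose by a log2 fold change of 0.53 (adjusted p = 0.0264), a call lost in 5 of the 6 fits with a library left out (0.059 to 0.102), while 4CL3 is described above.
4CL3: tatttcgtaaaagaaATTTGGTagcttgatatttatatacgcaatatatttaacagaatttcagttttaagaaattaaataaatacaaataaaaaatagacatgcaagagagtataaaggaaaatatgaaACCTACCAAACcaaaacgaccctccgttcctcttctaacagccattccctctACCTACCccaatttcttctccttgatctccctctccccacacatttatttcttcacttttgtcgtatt
C3H1: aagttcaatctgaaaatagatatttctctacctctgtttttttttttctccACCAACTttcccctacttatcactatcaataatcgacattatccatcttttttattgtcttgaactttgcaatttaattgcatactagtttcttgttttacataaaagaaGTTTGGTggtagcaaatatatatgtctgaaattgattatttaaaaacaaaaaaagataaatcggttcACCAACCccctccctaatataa

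Of 37 expansins, proteins that loosen the wall, 22 were tested, and 6 rose, 1 fell and 15 did not pass, with a median log2 fold change of 0.04. At an unadjusted p under 0.05, 7 were higher and 7 lower, and DESeq2 called 6 higher and 2 lower. EXPA15 had 114, 172 and 139 CPM in 35S:rMYB83, against 27.7, 23.3 and 23.5 CPM in 35S:miR858 and 116, 191 and 123 CPM in Col-0. The 35S:rMYB83 and Col-0 libraries were alike in range and every 35S:miR858 library was far lower (log2 fold change 2.53 ± 0.16 SE, adjusted p = 0.000946). EXPA6 had 21.2, 21 and 20.3 CPM in 35S:rMYB83, against 9.47, 9.46 and 9.35 CPM in 35S:miR858 (log2 fold change 1.15 ± 0.11 SE, adjusted p = 0.00229). EXPA4 had 178, 254 and 196 CPM in 35S:rMYB83, against 84.8, 80.5 and 99 CPM in 35S:miR858 (log2 fold change 1.26 ± 0.15 SE, adjusted p = 0.00495). The lines did not overlap in EXPA6 or EXPA4, and replicates of 35S:miR858 lay close together. In Col-0 EXPA6 had 32.9, 39.5 and 35.75 CPM and EXPA4 302, 311 and 351 CPM, above both lines. EXPB3 had 98.1, 154 and 132 CPM in 35S:rMYB83, against 50.2, 41.6 and 52 CPM in 35S:miR858 and 258, 375 and 319.9 CPM in Col-0. Both lines were below Col-0, and 35S:miR858 was the lower (log2 fold change 1.43 ± 0.17 SE, adjusted p = 0.00534). Without a single library 4 to 6 expansins rose and 0 to 2 fell, with 0 that fell without replicate 2 of either line or replicate 3 of 35S:rMYB83, and 2 without replicate 3 of 35S:miR858.

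Xyloglucan endotransglucosylase/hydrolase (XTH) genes rejoin xyloglucan chains of the wall. Of 33 listed 27 were tested, and 0 rose, 3 fell and 24 did not pass, with a median of -0.21 and 12 of 27 above 0. At an unadjusted p under 0.05, 3 were higher and 10 lower, and DESeq2 called 1 higher and 7 lower. XTH15 had 52.2, 53.6 and 60.3 CPM in 35S:rMYB83, against 98.1, 154 and 134 CPM in 35S:miR858 and 43.8, 43.5 and 46.3 CPM in Col-0. The 35S:miR858 libraries stood above all others (log2 fold change -1.20 ± 0.16 SE, adjusted p = 0.00698). The number that fell was 1 without replicate 2 of 35S:miR858, without replicate 1 of 35S:rMYB83 or without its replicate 2. BXL2, a beta-xylosidase of the wall, had 23.2, 40.5 and 48 CPM in 35S:rMYB83, against 120.4, 159 and 213 CPM in 35S:miR858 and 38, 39.5 and 72 CPM in Col-0. Again 35S:miR858 was the high group, with 35S:rMYB83 near Col-0 (log2 fold change -2.12 ± 0.28 SE, adjusted p = 0.00736). Reads of close relatives in such families were kept only where they aligned to 1 place, so the level of a gene with a near-identical copy is uncertain.

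The labels name no nutrient treatment of these plants, and 4 lists of nutrient genes were read. For nitrate and ammonium, 22 of 29 genes were tested, and 5 rose and 0 fell, with a median log2 fold change of 0.18; 3 were lower at an unadjusted p under 0.05 and DESeq2 called 1 lower. NRT1.1, the dual-affinity nitrate transporter and sensor, had 57.3, 102 and 58.9 CPM in 35S:rMYB83, against 21.9, 18.9 and 15.8 CPM in 35S:miR858 and 12.1, 17.2 and 20.5 CPM in Col-0. All 3 35S:rMYB83 libraries were above every other library, and 35S:miR858 was at the Col-0 level (log2 fold change 1.96 ± 0.25 SE, adjusted p = 0.00602). NRT2.1, the high-affinity transporter, had 32.1, 108 and 273 CPM in 35S:rMYB83, against 5.64, 2.05 and 2.04 CPM in 35S:miR858 and 212, 196 and 245 CPM in Col-0. The 35S:rMYB83 libraries spanned a wide range, and all of them were above 35S:miR858, which was far below Col-0 (log2 fold change 5.42 ± 0.84 SE, adjusted p = 0.0128). The NRT2.1 call ended without replicate 2 of 35S:miR858 (0.0657). NIA1, a nitrate reductase, had 216, 243 and 293 CPM in 35S:rMYB83, against 90.1, 135 and 141 CPM in 35S:miR858 and 244, 97.8 and 115 CPM in Col-0 (log2 fold change 1.05 ± 0.18 SE, adjusted p = 0.0198). Its call ended in 3 fits with a library left out, those without replicate 2 of 35S:miR858 or replicates 2 or 3 of 35S:rMYB83 (0.0598 to 0.0764), and in the fit of all 9 libraries (0.112). The number of the list that rose was 1 without replicate 2 of 35S:miR858, 2 without replicate 2 of 35S:rMYB83, and 3 without replicate 3 of either line, while 2 fell without replicate 1 of 35S:miR858. GDU5, of a family whose overexpression raises amino acid export, had 0.189, 0.367 and 0.567 CPM in 35S:rMYB83, against 6, 3.71 and 4.95 CPM in 35S:miR858 and 0.774, 0.362 and 0.843 CPM in Col-0. It was high in 35S:miR858 only, and fell (log2 fold change -3.55 ± 0.39 SE, adjusted p = 0.00411).

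For phosphate starvation, 11 of 17 genes were tested, all 11 had a log2 fold change above 0, and 5 rose and 0 fell, with a median of 0.82. At an unadjusted p under 0.05, 10 were higher and 0 lower, and DESeq2 called 7 higher and 0 lower. AT4, a non-coding RNA that sequesters the phosphate microRNA miR399, had 72.2, 73.9 and 54 CPM in 35S:rMYB83, against 15.6, 19.3 and 12 CPM in 35S:miR858 and 15.7, 10.6 and 10.9 CPM in Col-0. The 35S:rMYB83 libraries were above every other library, and 35S:miR858 and Col-0 overlapped (log2 fold change 2.11 ± 0.19 SE, adjusted p = 0.00223). PAP17, an acid phosphatase induced by phosphate loss, had 37.8, 34.6 and 24.3 CPM in 35S:rMYB83, against 8.39, 8.95 and 7.42 CPM in 35S:miR858 and 24.4, 10.8 and 17.7 CPM in Col-0. The lines did not overlap, and the lowest 35S:rMYB83 library was at the level of the highest Col-0 library (log2 fold change 1.97 ± 0.19 SE, adjusted p = 0.00242). SPX1, a phosphate sensor that binds the starvation regulator PHR1, had 52.2, 34.6 and 20.4 CPM in 35S:rMYB83, against 6.36, 5.37 and 2.79 CPM in 35S:miR858 and 17.4, 10.7 and 10.8 CPM in Col-0. The lines were apart on both sides of Col-0 (log2 fold change 2.89 ± 0.40 SE, adjusted p = 0.00825). These 3 calls were stable. The number of the list that rose was 3 without any 1 of the 35S:miR858 libraries and without replicate 2 of 35S:rMYB83.

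For sulphur deficiency, 12 of 15 genes were tested, and 3 rose and 0 fell, with a median log2 fold change of 0.67. DESeq2 called 7 higher and 0 lower, and 8 were higher and 0 lower at an unadjusted p under 0.05. APR1, a reductase of sulphate assimilation, had 73.9, 67.6 and 61.2 CPM in 35S:rMYB83, against 42.1, 41.3 and 39 CPM in 35S:miR858 and 200.5, 202 and 203 CPM in Col-0. Both lines were far below Col-0, and 35S:rMYB83 was the higher of them (log2 fold change 0.74 ± 0.10 SE, adjusted p = 0.0069). LSU2, a sulphur starvation response gene, had 30.4, 19.8 and 10.8 CPM in 35S:rMYB83, against 4.08, 1.79 and 2.04 CPM in 35S:miR858 and 94.1, 118 and 90.4 CPM in Col-0 (log2 fold change 2.93 ± 0.45 SE, adjusted p = 0.0122). GGCT2;1, which degrades glutathione, had 2.83, 2.57 and 2.15 CPM in 35S:rMYB83, against 0.12, 0.128 and 0.537 CPM in 35S:miR858 and 37, 49.7 and 42 CPM in Col-0 (log2 fold change 3.13 ± 0.49 SE, adjusted p = 0.0134). Both genes showed the same order, with Col-0 highest and 35S:miR858 lowest and no overlap. Without replicate 2 of 35S:miR858 LSU2 had adjusted p = 0.0562 and GGCT2;1 0.066, and without replicate 2 of 35S:rMYB83 they had 0.0531 and 0.0673. The number of the list that rose was 1 without either of these libraries and 5 without replicate 3 of 35S:rMYB83.

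For iron deficiency all 21 genes were tested, and 2 rose and 0 fell, with a median of 0.36; 0 were lower at an unadjusted p under 0.05 or by DESeq2. F6'H1, which makes the coumarin scopoletin that roots secrete under low iron, had 100.2, 95.9 and 96.3 CPM in 35S:rMYB83, against 40.7, 56.7 and 55.4 CPM in 35S:miR858 and 96.3, 118 and 124 CPM in Col-0. The 35S:miR858 libraries were below all others (log2 fold change 0.95 ± 0.13 SE, adjusted p = 0.00759). The second was NAS4, a nicotianamine synthase (log2 fold change 1.20, adjusted p = 0.0365), which lost its call in 4 of the 6 fits with a library left out (0.0706 to 0.113). The number that rose was 1 without replicate 2 of 35S:miR858 or any 1 of the 35S:rMYB83 libraries, and 3 without replicate 3 of 35S:miR858. Without replicate 1 of 35S:miR858 2 rose and 2 fell.

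**Figure D4:**
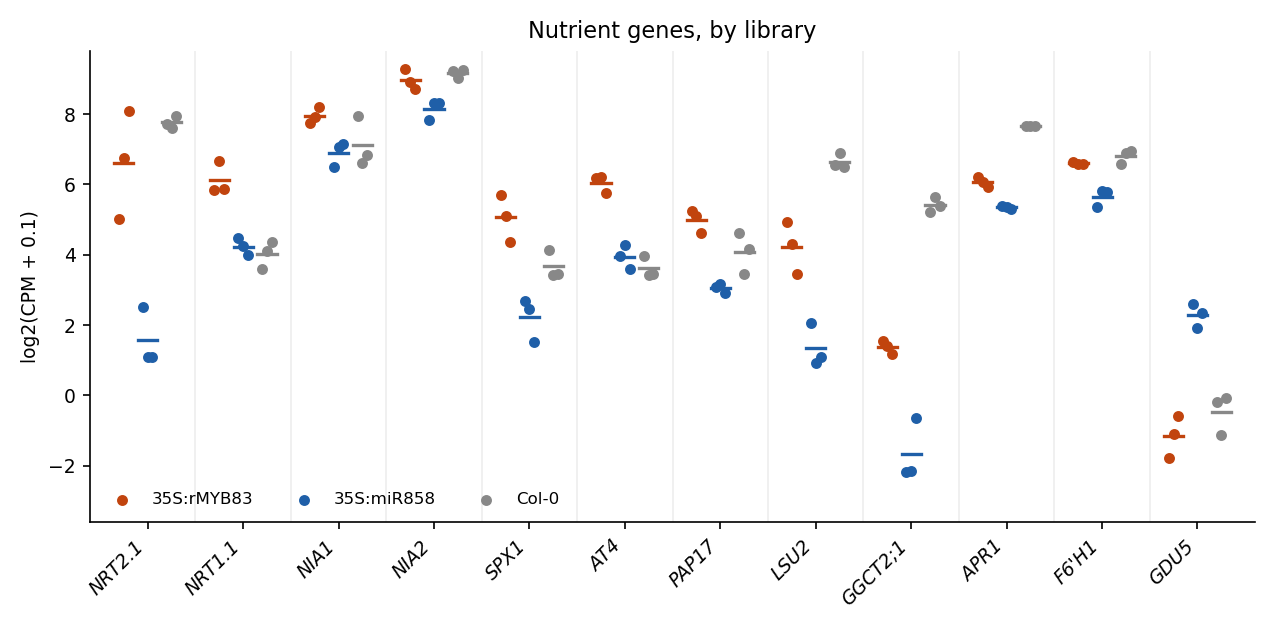
Levels of nutrient genes as log2(CPM + 0.1); points are libraries and short bars the group means, with 35S:rMYB83 left of 35S:miR858 and Col-0 last. The 35S:rMYB83 points lie above the 35S:miR858 points in every gene except GDU5, while the place of Col-0 differs: it is near 35S:miR858 for NRT1.1 and AT4 and the highest for APR1, LSU2 and GGCT2;1.

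Of 34 aquaporins 29 were tested, and 3 rose, 2 fell and 24 did not pass, with a median log2 fold change of -0.09. PIP1;5, a plasma membrane water channel, had 774, 847 and 658 CPM in 35S:rMYB83, against 268, 335 and 288 CPM in 35S:miR858 and 97.5, 137 and 129.5 CPM in Col-0. The 3 genotypes did not overlap, with 35S:rMYB83 highest and Col-0 lowest (log2 fold change 1.37 ± 0.13 SE, adjusted p = 0.00224). In 5 of the 6 fits with a library left out 1 aquaporin rose, all except the fit without replicate 3 of 35S:rMYB83, which gave 3, and 0 fell without replicate 2 of 35S:miR858 or replicates 2 or 3 of 35S:rMYB83. Among 57 WRKY transcription factors tested, from 72, 2 rose and 0 fell, so 3.51% were called, beside 4.43% of all genes tested. In this family 10 were lower at an unadjusted p under 0.05 and DESeq2 called 3 lower. Without replicate 3 of 35S:miR858 6 WRKY genes fell, and 1 fell without its replicate 1. WRKY31 had 29.1, 31.6 and 24.3 CPM in 35S:rMYB83, against 11.6, 10.9 and 10.6 CPM in 35S:miR858 (log2 fold change 1.37 ± 0.13 SE, adjusted p = 0.00262). WRKY60, which acts with WRKY18 and WRKY40 in defence and abscisic acid responses, had 49.9, 41.3 and 40.1 CPM in 35S:rMYB83, against 18.8, 19.3 and 16 CPM in 35S:miR858 (log2 fold change 1.29 ± 0.13 SE, adjusted p = 0.00263). In neither gene did the lines overlap. WRKY31 had 33.4, 41.4 and 46 CPM in Col-0, above both lines. WRKY60 had 14.9, 24.3 and 18.5 CPM in Col-0, near the 35S:miR858 level. Of 73 R2R3 MYB genes tested, from 124 with MYB83 left aside, 6 rose and 1 fell. Beside the 5 described above, MYB56, a repressor of divisions in the quiescent centre of the root, had 28.2, 27.6 and 27.3 CPM in 35S:rMYB83, against 4.8, 7.67 and 5.48 CPM in 35S:miR858 and 13.1, 14.7 and 16.1 CPM in Col-0, with no overlap among the 3 genotypes (log2 fold change 2.22 ± 0.17 SE, adjusted p = 0.00145). MYB108 fell (log2 fold change -1.73, adjusted p = 0.0245) and lost its call with DESeq2 (0.109) and in 5 of the 6 fits with a library left out. The number that rose was 3 without replicate 2 of 35S:rMYB83 and 4 without replicate 2 of 35S:miR858; 4 fell without replicate 3 of 35S:miR858 and 0 without any of the other libraries.

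Of 24 touch, wound and cold factors 22 were tested, and 0 rose and 3 fell, with a median log2 fold change of -0.83. At an unadjusted p under 0.05, 0 were higher and 12 lower, and DESeq2 called 0 higher and 8 lower. Their summed level was 1028, 913 and 859 CPM in 35S:rMYB83, against 1732, 2003 and 992 CPM in 35S:miR858 and 893, 436 and 591 CPM in Col-0. Replicate 3 of 35S:miR858 stood close to 35S:rMYB83 and its other replicates far above. Without that library 14 fell, and without any of the other 5 libraries 1 fell. ERF104, an ethylene response factor of defence signalling, had 155, 148 and 125 CPM in 35S:rMYB83, against 266, 254 and 219 CPM in 35S:miR858 and 146, 58 and 78.5 CPM in Col-0. The lines did not overlap (log2 fold change -0.78 ± 0.11 SE, adjusted p = 0.00999), and the call ended when all 9 libraries shared a spread (0.16).

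Of 12 hypoxia genes, all tested, edgeR called 0; 2 were higher and 0 lower at an unadjusted p under 0.05, DESeq2 called 1 higher, and the median was 0.83. Their summed level was 492, 558 and 570 CPM in 35S:rMYB83, against 640, 348 and 345 CPM in 35S:miR858. Replicate 1 of 35S:miR858 was the highest library of the 6, and without it 8 of the 12 rose. ADH1, alcohol dehydrogenase, shows the split, with 64.1, 70.3 and 82.2 CPM in 35S:rMYB83, against 70.9, 18.2 and 14.1 CPM in 35S:miR858 (adjusted p = 0.316). For the circadian clock 16 genes gave 0 calls by edgeR, 4 higher and 0 lower at an unadjusted p under 0.05 and 3 higher by DESeq2, with a median of 0.56. Without replicate 1 of 35S:miR858 1 rose, and without replicate 3 of 35S:rMYB83 3 did. LNK1, a clock co-activator, came closest (log2 fold change 1.41, adjusted p = 0.0575).

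Hormone and defence metabolism gave few calls in number, from short lists. The share called was 9.09% of tested jasmonate and ethylene genes and 16.7% of salicylic acid genes. It was 7.69% of camalexin and indole glucosinolate genes and 25% of aliphatic glucosinolate genes, beside 4.43% of all genes tested. Of 26 jasmonate and ethylene genes 22 were tested, and 1 rose and 1 fell, with a median log2 fold change of -0.55. LOX2, a lipoxygenase of jasmonate synthesis best known from leaves, had 172, 31.5 and 26.3 CPM in 35S:rMYB83, against 2.4, 1.15 and 6.99 CPM in 35S:miR858 and 27.4, 5.97 and 0.12 CPM in Col-0. Replicate 1 of 35S:rMYB83, the library with the highest green markers, was the highest by far, and their part in this result was not tested (log2 fold change 4.38 ± 0.91 SE, adjusted p = 0.0378). The LOX2 call held without that library and ended without replicate 1 of 35S:miR858 (0.112), its replicate 2 (0.135) or replicate 2 of 35S:rMYB83 (0.0648), and with all 9 libraries (0.082). ORA59, an ethylene response factor, fell (log2 fold change -1.05, adjusted p = 0.0482) and lost its call in 5 of the 6 fits with a library left out (0.087 to 0.146). In all, 3 fell without replicate 3 of 35S:miR858, 1 without its replicate 2 and 0 without any other, and 0 rose without replicates 1 or 2 of 35S:miR858 or replicate 2 of 35S:rMYB83.

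Of 18 salicylic acid genes 12 were tested, and 0 rose and 2 fell, SAG101 (log2 fold change -0.76, adjusted p = 0.016) and ALD1, the enzyme that starts pipecolic acid synthesis (-1.85, 0.0272). The median was -0.60; at an unadjusted p under 0.05 0 were higher and 6 lower, and DESeq2 called 0 higher and 4 lower. The SAG101 call ended without replicate 1 or 2 of 35S:miR858 or replicate 2 of 35S:rMYB83 (0.0509 to 0.0698), and that of ALD1 without replicates 1 or 2 of 35S:miR858 or replicates 1 or 3 of 35S:rMYB83 (0.0604 to 0.111). Without replicate 2 of 35S:miR858 0 of the list fell, and without its replicate 1 or any 1 of the 35S:rMYB83 libraries 1 fell. Of 13 camalexin and indole glucosinolate genes tested, from 14, CYP83B1 fell (log2 fold change -0.48, adjusted p = 0.0207) and 0 rose, with 1 higher at an unadjusted p under 0.05 and by DESeq2; 0 fell without replicates 1 or 2 of 35S:miR858 or replicates 1 or 3 of 35S:rMYB83. Of 8 aliphatic glucosinolate genes tested, from 9, BCAT4 (log2 fold change 0.64, adjusted p = 0.0341) and SOT18 (0.42, 0.0379) rose and 0 fell, also at an unadjusted p under 0.05 and by DESeq2. Without any 1 of the 35S:miR858 libraries 0 of these rose, and without any 1 of the 35S:rMYB83 libraries 1 did.

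Heat shock, auxin and cytokinin lists had 0 calls by edgeR and by DESeq2. At an unadjusted p under 0.05, 1 of 6 heat shock genes was higher and 1 lower, 2 of 19 auxin genes were lower, and 1 of 7 cytokinin genes was higher. Of all 18956 genes tested, 3656 passed that threshold in either direction. Medians of the heat shock, auxin and cytokinin lists were 0.30, -0.09 and -0.02 on the log2 scale. Without replicate 1 of 35S:miR858, 1 heat shock gene rose.

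Markers of root cell types were read to see whether the tissue makeup of the libraries differed. Of 22 endodermis and suberin markers edgeR and DESeq2 called 0, with 2 higher and 2 lower at an unadjusted p under 0.05, and their summed level was 706 to 905 CPM in 35S:rMYB83, against 833 to 992 CPM in 35S:miR858. Of 13 phloem markers the sucrose exporter SWEET12 fell (log2 fold change -0.79, adjusted p = 0.0389) and 0 rose by edgeR or DESeq2, with 3 higher at an unadjusted p under 0.05, and the sum was 365 to 455 CPM in 35S:rMYB83, against 406 to 465 CPM in 35S:miR858. Markers of dividing meristem cells summed to 178 to 217 CPM in 35S:rMYB83, against 168 to 193 CPM in 35S:miR858, with 0 of 13 called by either tool and 1 higher at an unadjusted p under 0.05. Root hair markers summed to 634 to 733 CPM in 35S:rMYB83, against 568 to 870 CPM in 35S:miR858, with 0 of 14 called by either tool and 2 lower at an unadjusted p under 0.05. In these 4 lists the summed levels of the lines overlapped. The list that also serves as xylem markers did not overlap, with 708 to 834 CPM in 35S:rMYB83 against 628 to 673 CPM in 35S:miR858. The sums of the green shoot markers overlapped, but all 20 log2 fold changes were above 0, with a median of 1.18. The SWEET12 call ended without replicates 2 or 3 of 35S:miR858 or replicates 1 or 2 of 35S:rMYB83 (0.0852 to 0.143). In the fits with a library left out, 1 endodermis marker rose without replicate 3 of 35S:rMYB83, and 1 phloem and 1 root hair marker rose without replicate 1 of 35S:miR858.

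**Figure D5:**
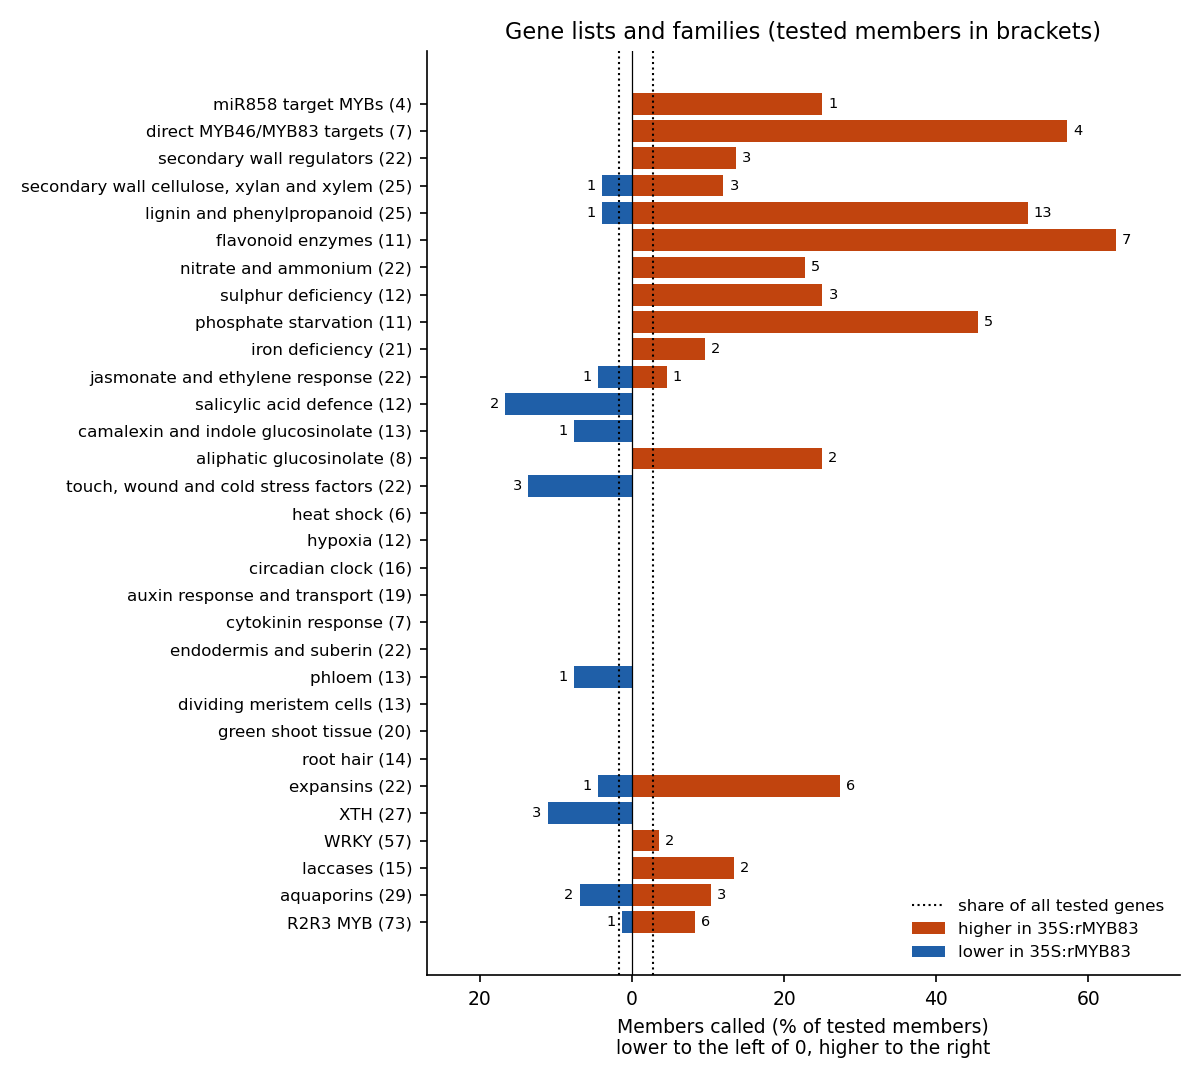
Share of the tested members of each list or family (number tested in brackets) that were higher (right of 0) or lower (left of 0) in 35S:rMYB83, in percent; dotted lines mark the shares of all genes tested, 2.69% and 1.74%. Flavonoid enzymes, direct MYB46/MYB83 targets and lignin genes reach furthest to the right.

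Other choices of fit moved some of these counts by over 1.5 times. When the 3 Col-0 libraries shared the estimate of spread, 8 lignin enzymes, 1 cellulose, xylan and xylem gene, 3 nitrate and 3 phosphate genes, 1 iron gene and 0 laccases rose, and 0 touch, wound and cold factors and 0 lignin enzymes fell. In that fit 1 salicylic acid gene and 0 camalexin genes fell, 2 clock genes rose, and 0 aliphatic glucosinolate and 0 jasmonate and ethylene genes were called in the direction called above. DESeq2 called 7 XTH genes, 4 aquaporins, 4 R2R3 MYB genes and 2 expansins lower, 2 camalexin genes and 2 jasmonate and ethylene genes lower, and 4 aliphatic glucosinolate genes higher. With library totals in place of TMM scaling, 5 aquaporins and 2 clock genes rose, 2 WRKY genes fell, and the calls of ORA59 and SWEET12 ended. Without the filter on low counts 2 clock genes rose and 2 WRKY genes fell. Over all alternatives that left no library out, 0 to 4 clock genes rose.

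Outside these lists, the genes with the largest folds were mostly nearly silent in 35S:miR858. RD20, a caleosin induced by drought, had 4.35, 5.25 and 3.4 CPM in 35S:rMYB83, against 0, 0 and 0.107 CPM in 35S:miR858 and 1.72, 0.271 and 0 CPM in Col-0. With 1 count in 35S:miR858, its ratio was 110 (95% counting interval 19.2 to 4374; adjusted p = 0.00233). AT2G33350, annotated as a CCT motif protein, had 2.83, 3.67 and 5.55 CPM in 35S:rMYB83, against 0, 0.128 and 0 CPM in 35S:miR858 and 0, 0 and 0 CPM in Col-0. It was read in 35S:rMYB83 and almost nowhere else, with a ratio of 107 (interval 18.8 to 4284; adjusted p = 0.00394). AT2G22590, annotated as a UDP-glycosyltransferase, had 7.94, 9.9 and 3.85 CPM in 35S:rMYB83, against 0.12, 0.128 and 0.323 CPM in 35S:miR858 and 6.11, 3.71 and 2.89 CPM in Col-0, so that 35S:miR858 was the group that stood apart (log2 fold change 5.10 ± 0.56 SE, adjusted p = 0.00415). GolS2, a galactinol synthase of the raffinose pathway, had 7.37, 6.6 and 2.95 CPM in 35S:rMYB83, against 0.24, 0.384 and 0.107 CPM in 35S:miR858 (log2 fold change 4.48 ± 0.55 SE, adjusted p = 0.0059). In the other direction AT2G48090, an uncharacterized gene, had 0.945, 2.32 and 1.93 CPM in 35S:rMYB83, against 17.3, 11 and 11.3 CPM in 35S:miR858 and 19.4, 16.8 and 18.7 CPM in Col-0. Here 35S:rMYB83 alone was low (log2 fold change -2.85 ± 0.32 SE, adjusted p = 0.00423).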

How the data were processed

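Per the submitters' processing notes, the reads were handled with FastQC, Trimmomatic, TopHat2 2.0.14 and HTSeq on the build TAIR10; their settings and the strand mode were not given in the sources used. The deposited values are raw counts per locus. HTSeq leaves out reads aligned to several places, so close paralogs are uncertain, and its summary lines were set aside: reads in no feature equalled 4.42% to 5.96% and ambiguous reads 1.72% to 2.04% per library. Of 28775 loci, 28009 matched the TAIR10.1 annotation. The 11 ribosomal RNA loci together took 10.4% to 14.4% of counts in the 6 libraries. Counts of the 6 libraries were filtered with filterByExpr, scaled by TMM (factors 0.963 to 1.05) and tested in edgeR 4.0.16 (R 4.3.3) with the quasi-likelihood F test, Benjamini-Hochberg adjusted over all genes tested, called at 0.05; SE is the log2 fold change divided by the root of F. The fit was tested on simulated data. Levels are CPM scaled over all 9 libraries. DESeq2 1.42.0, other scalings and filters, all 9 libraries, a replicate block and each library left out were alternatives.

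The genes and lists were chosen with earlier results of these data known, so lists are given by counts and medians, with no list test. Named genes are the overexpressed loci and MYB targets, the 12 with the largest fold per direction (mean of at least 1 CPM in the higher group), and up to 4 per list and direction with the smallest adjusted p; other names were chosen after their values were seen.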

Additional observations from a re-analysis of the deposited data

How the results depend on the processing

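The direction of every gene called held in all 14 alternatives. A change was hardly possible, since these genes had no overlap between the lines and the alternatives drew on the same libraries. Of the 839, 250 were called in each of the 14 alternatives, 188 higher and 62 lower. DESeq2 called 557 lower genes, against 329 with edgeR, and 664 higher genes. Leaving out 1 library at a time gave 217 to 452 higher genes and 98 to 359 lower genes; at a fold of at least 2 it gave 152 to 301 higher and 51 to 162 lower, where the cause was not tested beyond the smaller number of libraries. Other scalings, a looser filter on low counts (at least 1 CPM in 3 libraries), no such filter and a fit of all 9 libraries kept each count within 1.5 times. Of 13 genes other than MYB83 with a predicted miR858 site 2 were higher, and at a penalty of at most 3 it was 1, since fewer loci qualify. Of 86 named genes called, 50 lost the call under some alternative, 36 held it under all, and 3 others (PGB1, LNK1 and FAR4) passed under some. Whether the replicate numbers pair the libraries cannot be settled with 3 libraries a group. The deviations of same-numbered libraries from their group means correlated at -0.09, 0.31 and -0.11, and those of differently numbered libraries at -0.37 to 0.37. With the number as a replicate block, 459 genes were higher and 303 lower. Depth limits the lowest genes: MYB11 and MYB111 could not be tested, and a ratio over 1 to 3 counts spans a wide interval. With 3 libraries a group, an estimate of spread rests on few samples.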

Other observations

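The genes of this paragraph were chosen after their values were seen, from the 256 genes called with each library left out in turn, and belong to none of the lists. GSTF14, a glutathione S-transferase, had 82, 56.7 and 82 CPM in 35S:rMYB83, against 6.84, 7.55 and 6.45 CPM in 35S:miR858 and 11.2, 15.6 and 17.4 CPM in Col-0 (log2 fold change 3.41 ± 0.17 SE, adjusted p = 0.000331, edgeR). All 3 35S:rMYB83 libraries were far above every other library. FSD1, an iron superoxide dismutase, had 190.5, 212 and 172 CPM in 35S:rMYB83, against 62.4, 52.6 and 67.9 CPM in 35S:miR858 (log2 fold change 1.66 ± 0.13 SE). CSD2, the copper/zinc superoxide dismutase of plastids, had 72.4, 65.5 and 76.2 CPM in 35S:rMYB83, against 105, 112 and 119.9 CPM in 35S:miR858 (log2 fold change -0.64 ± 0.09 SE). The iron enzyme was higher and the copper/zinc enzyme lower in 35S:rMYB83, without overlap in either. GSR2, a cytosolic glutamine synthetase, had 752, 778 and 536 CPM in 35S:rMYB83, against 256, 232 and 209 CPM in 35S:miR858 and 641, 799.6 and 937 CPM in Col-0 (log2 fold change 1.58 ± 0.16 SE). LSU4, of the family of LSU2, had 16.8, 15.8 and 11.1 CPM in 35S:rMYB83, against 1.32, 1.15 and 0.537 CPM in 35S:miR858 (log2 fold change 3.87 ± 0.32 SE, adjusted p = 0.00169, edgeR). In each of these 2 genes 35S:miR858 lay below 35S:rMYB83 without overlap.

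The genes of this paragraph were chosen in the same way. UGT84A2, a glucosyltransferase of hydroxycinnamates, had 93.9, 79.3 and 42.3 CPM in 35S:rMYB83, against 15.6, 11.8 and 13.6 CPM in 35S:miR858 (log2 fold change 2.40 ± 0.29 SE). UGT72E2, which glucosylates monolignols, had 155, 178 and 159.8 CPM in 35S:rMYB83, against 100.3, 87.1 and 77.7 CPM in 35S:miR858 and 370.5, 603 and 650.1 CPM in Col-0 (log2 fold change 0.91 ± 0.11 SE). Both were higher in 35S:rMYB83, and UGT72E2 was highest in Col-0. DTX35, a transporter of flavonoids, had 109.6, 123 and 78.9 CPM in 35S:rMYB83, against 27.7, 28.8 and 35.9 CPM in 35S:miR858 (log2 fold change 1.76 ± 0.18 SE). LBD4, a regulator of the boundary of vascular tissue, had 47.8, 47.7 and 47.3 CPM in 35S:rMYB83, against 19.3, 10.6 and 11.7 CPM in 35S:miR858 (log2 fold change 1.79 ± 0.21 SE). CLV1, the receptor kinase of stem cell control, had 32.3, 44.6 and 40.8 CPM in 35S:rMYB83, against 108, 98.9 and 112 CPM in 35S:miR858 and 69, 49.3 and 66.2 CPM in Col-0 (log2 fold change -1.42 ± 0.12 SE, adjusted p = 0.00199, edgeR). CLV1 was the gene of these with 35S:rMYB83 lowest and 35S:miR858 highest, and Col-0 between them.

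The tested genes were taken in chromosome order, with untested loci between them skipped. Consecutive genes called in the same direction formed 46 runs of at least 2, with 95 genes, and 3 runs reached 3 genes. Some runs held members of 1 family, such as FRO4 with FRO5. How many runs would arise from the shares of higher and lower genes alone was not computed. On chromosome 2, RD20 (14144831 to 14146555, minus strand) and AT2G33350 (14133810 to 14137175, plus strand), both nearly silent in 35S:miR858, lie close together. Between them AT2G33360 had 32.5, 34.2 and 31.5 CPM in 35S:rMYB83, against 18.1, 18.8 and 18.3 CPM in 35S:miR858, and was called (log2 fold change 0.84 ± 0.09 SE, adjusted p = 0.00415, edgeR). AT2G33370, also between them and listed on the minus strand, had 87, 97 and 95.7 CPM in 35S:rMYB83, against 99.1, 92.9 and 89.9 CPM in 35S:miR858, and its groups overlapped. No source used here states the strand mode of the counting, so reads of overlapping or antisense genes cannot be told apart. By chromosome, the share of tested genes that were higher was 2.50% to 3.07%, and the share that were lower 1.52% to 1.98%.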
